A study of Danio rerio with 4 samples.

Results

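Of the 32379 Ensembl genes counted, 10 genes of serine/arginine-rich (SR) splicing factors are described here: srsf5a, the gene against which the morpholino was designed, its relative listed as SRSF5 and read as srsf5b, both genes listed as SRSF6, SRSF9, both genes listed as SRSF1, both genes listed as SRSF3, and srsf7a. They were taken by gene identifier, with no threshold on their values. RNA was sequenced from whole zebrafish embryos of the AB strain at 48 hours post fertilization (hpf). Embryos in 2 libraries had received 3 ng of the srsf5a morpholino at the 1-cell stage, and embryos in 2 further libraries had received 3 ng of a control morpholino, so that all of them were injected and an uninjected group was not analysed here. Injected embryos were sorted by a fluorescent dextran, and 80 embryos were lysed per condition. The labels speak of biological replicates without saying if each library had its own pool of embryos, so p-values here reflect variation among these 4 libraries, which may be technical.

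SR proteins carry RNA recognition motifs and a tail rich in arginine and serine. They bind enhancer sequences in exons and help the spliceosome choose splice sites. In the nucleus their tails are phosphorylated by CLK kinases and in the cytoplasm by SRPK kinases, as worked out mainly in mammalian cells. Many mammalian SR genes also limit their own output by including an exon with a premature stop codon, which sends the transcript to nonsense-mediated decay. SRSF5 and SRSF6 belong to a branch with a pair of RNA recognition motifs, SRSF1 and SRSF9 form another, and SRSF3 and SRSF7 carry a single motif and help export mRNA.

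A morpholino is a synthetic antisense oligomer that pairs with RNA and blocks splicing or translation. Both oligomers used for injection are shown with the RNA letters each would pair with, because the comparison rests on them, and the sequences come from the design text of the study. Capitals mark GTGAG or GTAAG, letters often found at the start of an intron, which were sought in each oligomer and in its reverse complement.
srsf5a morpholino: ggattcagtctcacctctcactgca
srsf5a morpholino reverse complement: tgcaGTGAGagGTGAGactgaatcc
control morpholino: cctcttacctcagttacaatttata
control morpholino reverse complement: tataaattgtaactgagGTAAGagg
Each oligomer was 25 bases long, with 13 G or C bases in the srsf5a morpholino and 8 in the control. The complement of the srsf5a morpholino held GTGAG 2 times, starting at bases 5 and 12, and that of the control held GTAAG at base 18. These matches are a description of the letters. The oligomers were not placed in the genome, for which no sequence was used here, and the name sMOsrsf5a in the labels was read as splice-blocking.

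Reads assigned to genes numbered 22739821 and 23950082 in the srsf5a-morpholino libraries and 15139525 and 36240893 in the control libraries. Counts are given as CPM, that is, scaled to library size with TMM factors, and differences as log2 fold changes, srsf5a morpholino over control, from edgeR's quasi-likelihood fit to all 19917 tested genes. A gene was called at a Benjamini-Hochberg adjusted p under 0.05 over all of them. All 10 SR genes passed the filter on low counts. Between 29.0% and 34.2% of all listed counts were for alignments that were not unique, and these were set aside. Genes with close copies, SR paralogs among them, may thus have lost reads. As a check of the labelled tissue, 9 of 12 markers of embryonic tissues were found and tested. They included the epidermal keratin gene krt4, the neuronal gene ELAVL3, the heart gene MYL7 and the lens gene CRYAA, and each had at least 16.9 CPM in every library.

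Of the 10 SR genes, 1 was called, SRSF9, which was lower with the srsf5a morpholino. Over all tested genes 1.98% were called, 1.22% higher and 0.768% lower. The SR genes' share of calls rests on 1 gene, so it is not read as an excess over that background. The 10 genes were also chosen with earlier results of these data known. In 6 of the 10 the log2 fold change lay above 0 and in 4 below, with a median of 0.05, against 0.00 over all tested genes. The CPM values of the groups did not overlap in 3 of the 10 (SRSF9 and both SRSF3 genes), all lower, whereas 52.4% of all tested genes showed such separation, 26.1% as higher and 26.3% as lower. Separation between groups was therefore no more frequent among the SR genes than in the table as a whole, and its share as lower lay near the background.

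**Figure D1:**
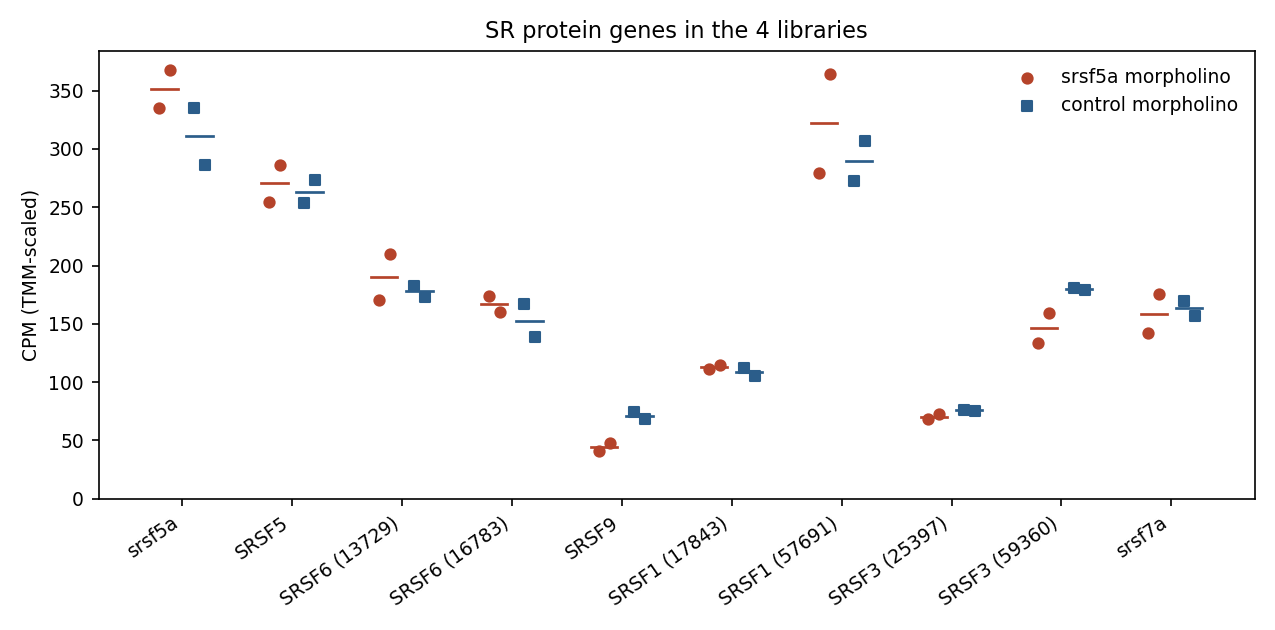
CPM of the 10 SR genes in each library (points), with the group mean as a line. Round points are srsf5a-morpholino libraries and square points control libraries, and numbers in brackets are the last digits of the Ensembl identifier. SRSF9 stood at 41.3 and 47.7 CPM with the srsf5a morpholino, below both controls at 74.0 and 68.0 CPM.

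srsf5a (ENSDARG00000029818) had 335 and 368 CPM in srsf5a-morpholino replicates 1 and 2, against 335 and 286 CPM in control replicates 1 and 2. The lower value with the srsf5a morpholino and the higher control value lay within 1 CPM of each other, so the groups touched, and the difference came from srsf5a-morpholino replicate 2 and control replicate 2. The log2 fold change was 0.18 ± 0.11 (SE), with a 95% interval of -0.09 to 0.45 and an adjusted p of 0.424 in edgeR. Leaving out control replicate 1 gave 0.29 and leaving out control replicate 2 gave 0.066, while leaving out either srsf5a-morpholino library gave 0.25 (replicate 1 left out) or 0.11 (replicate 2 left out). The gene's total read count was thus not lower in embryos given the morpholino against it. A count over the whole gene does not separate spliced from unspliced or misspliced transcripts, so it does not measure the block, and it does not check the labels.

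SRSF5 (ENSDARG00000027734), the relative read as srsf5b, had 255 and 287 CPM with the srsf5a morpholino and 253 and 273 CPM in the controls. The groups overlapped, and the interval of the log2 fold change was -0.20 to 0.28 around 0.04. For every read of SRSF5 there were 1.31 and 1.28 reads of srsf5a in the srsf5a-morpholino libraries, against 1.32 and 1.05 in the control libraries. Library size cancels in such a ratio, but gene length does not, so only its change between groups can be read. The ratios overlapped between groups, and the mean log2 ratio differed by 0.14 (two-sided exact permutation test, p = 1). With 2 libraries against 2, that test cannot give a p below 0.333, so none of the 6 ratios compared here could pass, and adjusted over the 6 pairs the lowest p was 0.667.

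SRSF6 is a relative of SRSF5 from the same branch of SR proteins and is known in human cells as SRp55. The gene ENSDARG00000013729 had 170 and 210 CPM with the srsf5a morpholino and 183 and 173 CPM in the controls. The gene ENSDARG00000016783 had 174 and 160 CPM with the srsf5a morpholino and 167 and 139 CPM in the controls. In each, the groups overlapped, and the log2 fold changes were 0.10 ± 0.12 and 0.13 ± 0.12 (SE), with adjusted p of 0.704 and 0.579 in edgeR. Leaving out 1 library put the second gene between 0.00099 and 0.26. The SRSF6 genes moved in opposite directions between the srsf5a-morpholino replicates. The first gene had 0.980 and 1.31 reads for each read of the second in the srsf5a-morpholino libraries, against 1.10 and 1.24 in the controls. The mean log2 ratio differed by -0.04 between groups (two-sided exact permutation test, p = 1), less than its spread within the srsf5a-morpholino group (SD 0.30, n = 2).

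SRSF9, known in human cells as SRp30c, was the gene that passed. SRSF9 (ENSDARG00000008097) had 952 and 1123 reads with the srsf5a morpholino and 1108 and 2493 reads in the controls, which on scaled library sizes were 41.3 and 47.7 CPM against 74.0 and 68.0 CPM. Both srsf5a-morpholino libraries lay below both controls, and the gap between groups was wider than that between the replicates of either group. The means were 44.5 ± 4.53 CPM with the srsf5a morpholino and 71.0 ± 4.27 CPM in the controls (SD, n = 2 each), so that the level fell by 37.3%. The log2 fold change was -0.67 ± 0.11 (SE), with a 95% interval of -0.93 to -0.41 and an adjusted p of 0.0382 in edgeR. By p-value the gene ranked 246 among the 19917 tested. In the authors' deposited table, whose file does not state the direction but whose sign was that of edgeR for 99.1% of tested genes, SRSF9 had a log2 fold change of -0.61 and an adjusted p of 2.81e-04 (DESeq2). That test used the same libraries, so it is not independent, and had 1006 genes with an adjusted p under 0.05, against 395 in edgeR.

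The SRSF9 call ended when either control was left out, settings in which fewer genes were called over the whole table. Without control replicate 1 the log2 fold change was -0.62, and without control replicate 2 it was -0.73. Its SE was 0.16 each time, against 0.11 with all 4 libraries. The direction held, but groups that do not overlap leave little room for it to change. Leaving out a library leaves its group with 1, which is then assumed to vary like the other group. In whole embryos, fewer cells of a type and less RNA per cell cannot be told apart. Among the 9 tissue markers the liver gene tfa was called, also lower, at 492 and 611 CPM with the srsf5a morpholino and 988 and 1276 CPM in the controls. Of the 9 markers 5 lay above 0 and 4 below, with a median of 0.14, and 5 had an unadjusted p under 0.05 (20.6% of all tested genes did). The groups did not overlap in 8 markers (5 higher, 3 lower), and in 52.4% of all tested genes (26.1% higher, 26.3% lower). The red cell gene hbae3 (-0.49) and ELAVL3 (-0.43) lay below 0, whereas the lens genes CRYAA (0.89) and cryba1b (0.58) lay above 0, and none of these 4 passed in edgeR. The part of these tissues in the SRSF9 result was not tested.

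**Figure D2:**
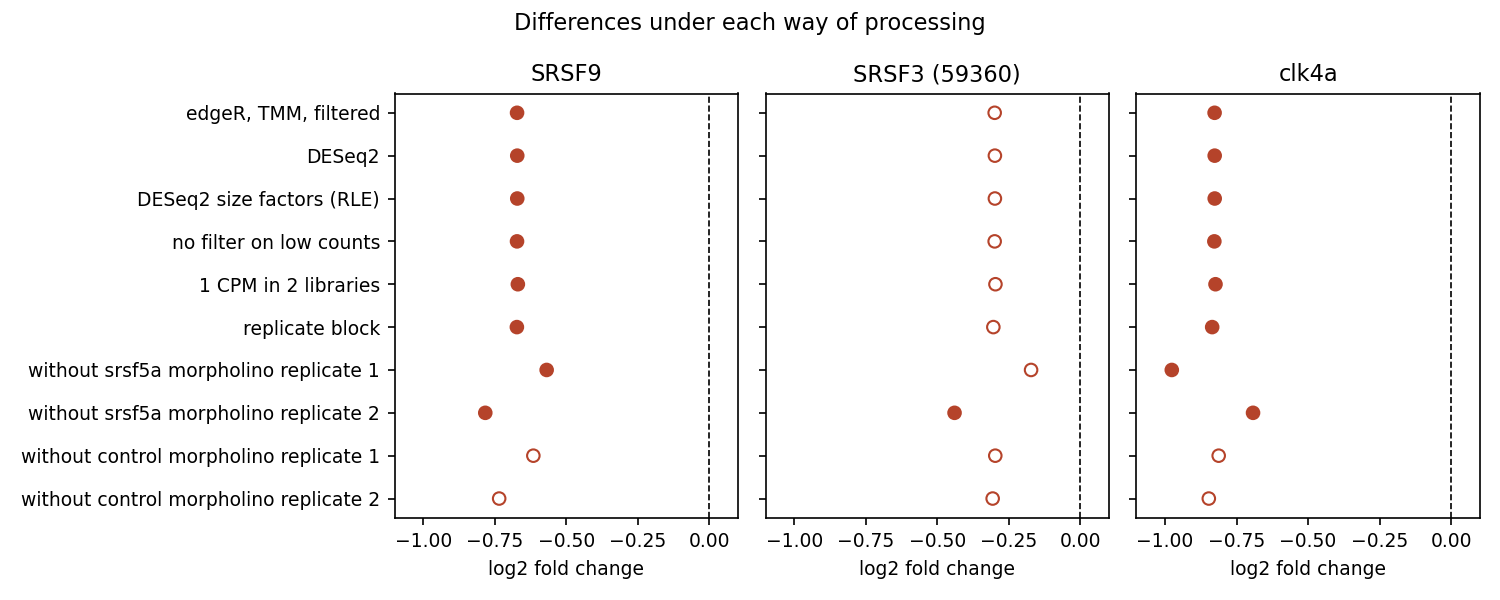
Log2 fold changes of SRSF9, of the SRSF3 gene ENSDARG00000059360 and of clk4a (x axis) under each way of processing (rows), with filled points where the adjusted p was under 0.05. SRSF9 ranged from -0.78 to -0.57 and clk4a from -0.98 to -0.69. Both calls ended when either control was left out, settings in which fewer genes were called over the whole table.

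SRSF1, first described as a factor that switches splice site choice, is the SR protein closest to SRSF9 in humans. The gene ENSDARG00000017843 had 111 and 114 CPM with the srsf5a morpholino and 112 and 105 CPM in the controls, a log2 fold change of 0.06 with the narrowest standard error of the 10 (0.09). The gene ENSDARG00000057691 had 279 and 365 CPM with the srsf5a morpholino and 272 and 307 CPM in the controls, and its log2 fold change of 0.15 had the widest (0.14). In each the groups overlapped, and adjusted p was 0.763 and 0.593 in edgeR. The first SRSF1 gene had 0.399 and 0.314 reads for each read of the second with the srsf5a morpholino, against 0.410 and 0.343 in the controls, a difference in mean log2 ratio of -0.08 (two-sided exact permutation test, p = 0.667).

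Set against either SRSF1 gene, SRSF9 was lower in both srsf5a-morpholino libraries. For each read of ENSDARG00000017843 there were 0.371 and 0.417 reads of SRSF9 with the srsf5a morpholino, against 0.663 and 0.647 in the controls. For each read of ENSDARG00000057691 there were 0.148 and 0.131 reads of SRSF9 with the srsf5a morpholino, against 0.272 and 0.222 in the controls. The groups did not overlap in either ratio. Both ratios use the SRSF9 counts behind its call, so they are not independent of that call or of each other. The mean log2 ratios differed by -0.74 and -0.82, with p = 0.333 for each in a two-sided exact permutation test, the smallest value that 2 libraries against 2 allow.

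**Figure D3:**
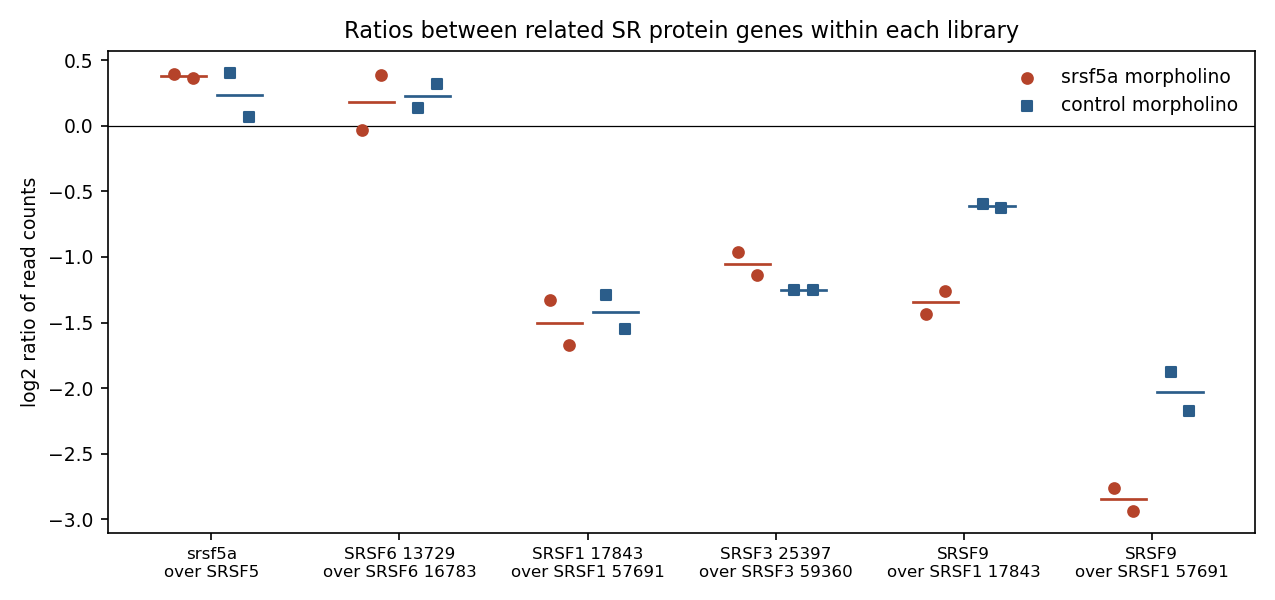
Log2 ratio of the read counts of related SR genes within each library (points), with group means as lines, srsf5a-morpholino libraries (round) left of control libraries (square). The ratio of SRSF9 to either SRSF1 gene was lower in both srsf5a-morpholino libraries, and the ratios within the SRSF5, SRSF6 and SRSF1 pairs overlapped between groups.

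SRSF3, the smallest SR protein in humans, adapts mRNA to the export receptor NXF1, as does SRSF7. The SRSF3 gene ENSDARG00000059360 had 133 and 160 CPM with the srsf5a morpholino and 181 and 179 CPM in the controls. Both srsf5a-morpholino values lay below the controls, which were 1.01-fold apart, while the srsf5a-morpholino libraries were 1.20-fold apart. The log2 fold change was -0.30 ± 0.11 (SE), and its adjusted p of 0.195 in edgeR did not pass. Its own 95% interval, -0.56 to -0.04, which was not adjusted for the number of genes, left out 0. In edgeR, 2 of the 10 SR genes had an unadjusted p under 0.05, as did 20.6% of all tested genes. The interval of this SRSF3 gene is thus not read as standing out from that background. Without srsf5a-morpholino replicate 2 the log2 fold change was -0.44 and passed, but more genes were then called over the whole table as well. Without srsf5a-morpholino replicate 1 it was -0.17.

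The other SRSF3 gene, ENSDARG00000025397, had 68.2 and 72.4 CPM with the srsf5a morpholino and 75.9 and 75.4 CPM in the controls. These groups did not overlap either, but the difference was small, with a log2 fold change of -0.11 ± 0.09 (SE) and an adjusted p of 0.561 in edgeR. For each read of ENSDARG00000059360 there were 0.512 and 0.454 reads of ENSDARG00000025397 in the srsf5a-morpholino libraries, against 0.420 and 0.421 in the controls. The groups did not overlap in this ratio, whose mean on the log2 scale was higher by 0.20 with the srsf5a morpholino (two-sided exact permutation test, p = 0.333, the smallest possible). srsf7a (ENSDARG00000035325) had 142 and 176 CPM with the srsf5a morpholino and 170 and 157 CPM in the controls. Its groups overlapped, and the log2 fold change was -0.04, with an interval of -0.33 to 0.25.

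**Figure D4:**
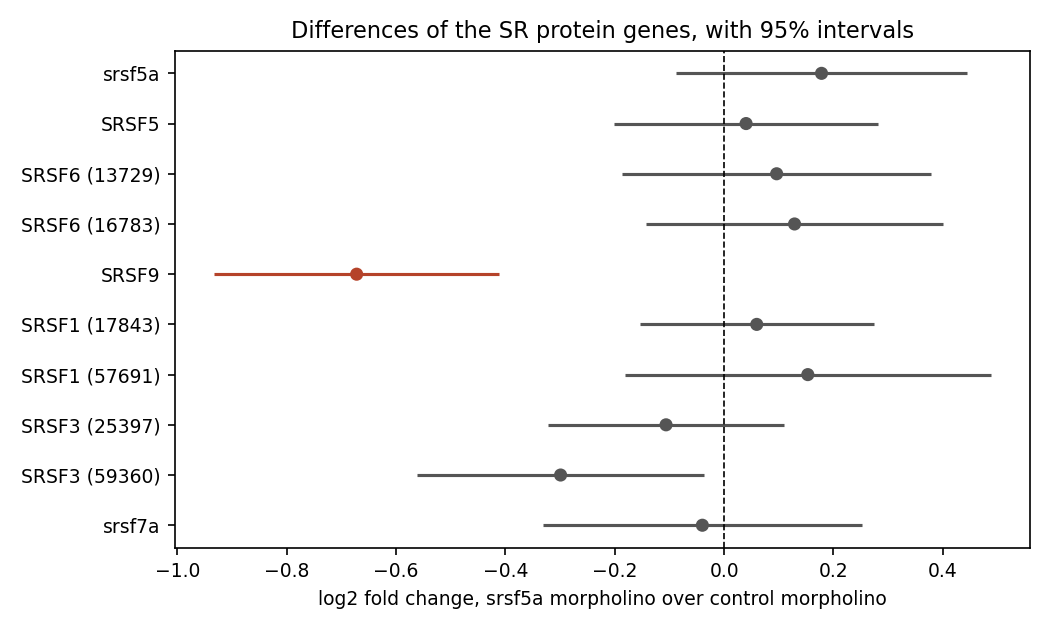
Log2 fold change of each SR gene, srsf5a morpholino over control (points), with its 95% interval, not adjusted for the number of genes (lines), and the median of all tested genes (dashed). The interval of SRSF9 ran from -0.93 to -0.41, and those of the other 9 genes lay between -0.56 and 0.49.

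Together the 10 genes took 0.173% and 0.193% of gene counts in the srsf5a-morpholino libraries and 0.180% and 0.178% in the controls. Their summed level was 1834 ± 176 CPM with the srsf5a morpholino and 1792 ± 42.9 CPM in the controls (SD, n = 2 each), and the srsf5a-morpholino libraries held both the lowest and the highest sum. Replicate 2 exceeded replicate 1 in 9 of the 10 genes within the srsf5a-morpholino group, the exception being the SRSF6 gene ENSDARG00000016783. Among the controls, replicate 2 exceeded replicate 1 in 2 of the 10, SRSF5 and the SRSF1 gene ENSDARG00000057691. In 7 of the 10 the difference between groups was smaller than the larger gap between replicates. Within the reads of the 10 genes, SRSF9 made up 2.42% and 2.44% with the srsf5a morpholino and 4.06% and 3.86% in the controls. The share of srsf5a was 19.6% and 18.8% with the srsf5a morpholino, and 18.4% and 16.2% in the controls.

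Gene lists around the SR proteins were read in the same fit. Among 14 tested kinases, phosphatases and the importer of SR proteins, 1 was called lower and 0 were called higher. Over all tested genes 0.768% were called lower and 1.22% higher. In the list 8 lay below 0 and 6 above, with a median log2 fold change of -0.01. An unadjusted p under 0.05 was found for 3 of the 14, and for 20.6% of all tested genes. The groups did not overlap in 3 as higher and 4 as lower, against 26.1% and 26.3% of all tested genes. The gene called was clk4a, one of the CLK kinases that phosphorylate SR proteins in mammalian nuclei. It had 65.2 and 53.3 CPM with the srsf5a morpholino and 106 and 104 CPM in the controls, a log2 fold change of -0.83 ± 0.12 (SE; adjusted p = 0.0275 in edgeR). Both values lay well below both controls. Yet the call ended without control replicate 1 (-0.81 ± 0.16, SE) and without control replicate 2 (-0.85 ± 0.17, SE). Fewer genes were called over the whole table in both settings.

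Values of the other CLK genes are given although they did not pass and were picked out after they had been seen. CLK1 had 36.2 and 35.4 CPM with the srsf5a morpholino and 49.7 and 51.2 CPM in the controls, a log2 fold change of -0.50 whose adjusted p was 0.0519 in edgeR. The CLK2 gene ENSDARG00000062954 had 54.8 and 56.1 CPM with the srsf5a morpholino and 73.3 and 67.9 CPM in the controls (-0.35, adjusted p = 0.103 in edgeR), and its groups did not overlap. The other CLK2 gene, ENSDARG00000059870, had a log2 fold change of 0.03. The tested genes of the SRPK family, which phosphorylate SR proteins in the cytoplasm, lay at 0.04 for srpk1a, 0.17 for srpk1b and -0.01 for SRPK3. The importer gene TNPO3 lay at 0.02. Whether the CLK and SRPK genes differ from each other in response was not tested. Genes of other lists that did not pass also reached low values. Log2 fold changes ran from -0.78 to 0.13 in SR-related splicing regulators and from -0.38 to 0.24 in mRNA export genes. In genes of the exon junction complex and nonsense-mediated decay they ran from -0.42 to 0.28.

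**Figure D5:**
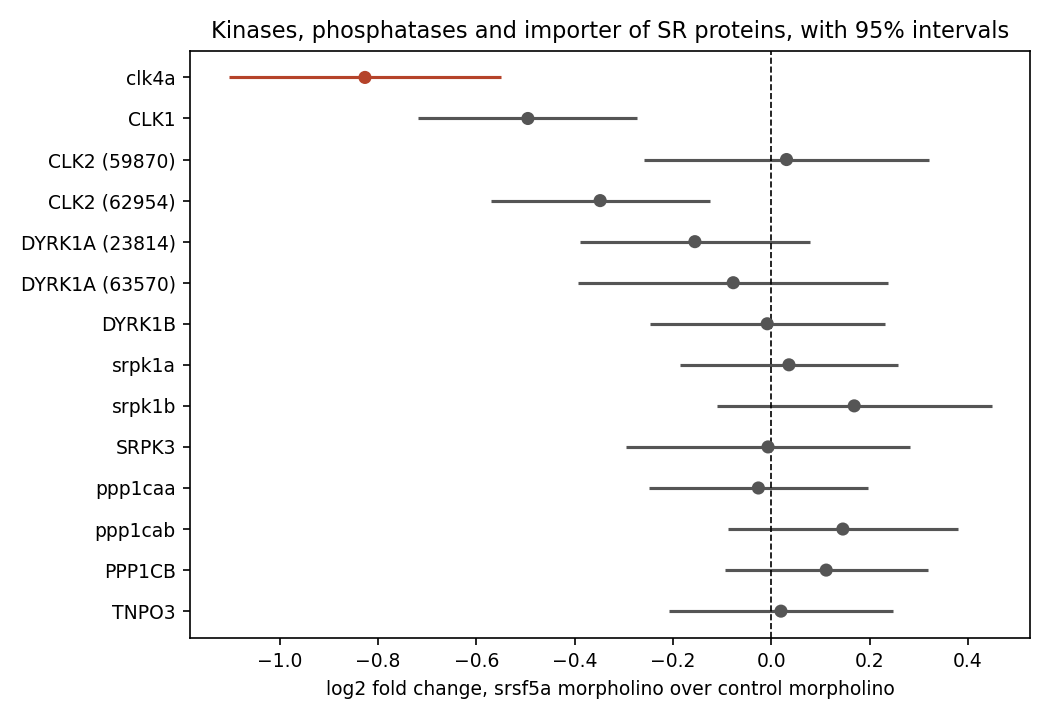
Log2 fold change, srsf5a morpholino over control, of 14 genes for kinases, phosphatases and the importer of SR proteins (points), with 95% intervals not adjusted for the number of genes (lines) and the median of all tested genes (dashed). clk4a, at -0.83, was the gene of this list with an adjusted p under 0.05, and srpk1a, srpk1b and SRPK3 lay between -0.01 and 0.17.

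No gene passed in the remaining 4 lists around the SR proteins. Of 10 further SR gene symbols sought, some of them alternative names, 2 were found and tested. Only 20603 of the 32379 genes had a symbol, so other SR genes may have been missed. srsf2a had 210 and 240 CPM with the srsf5a morpholino and 219 and 223 CPM in the controls (log2 fold change 0.02), and srsf10b had 35.8 and 53.7 CPM with the srsf5a morpholino and 38.3 and 41.6 CPM in the controls (0.16). In 19 SR-related splicing regulators edgeR called 0 genes, 3 had an unadjusted p under 0.05, the median log2 fold change was -0.05, and the most abundant were acin1a (-0.07) and srrm1 (0.13). In 10 genes of the exon junction complex and nonsense-mediated decay, the pathway that removes SR transcripts with premature stops, edgeR called 0 genes, 3 had an unadjusted p under 0.05, and the median was -0.01. The most abundant was SMG1, a kinase of the decay pathway, at -0.08. In 14 mRNA export genes edgeR called 0 genes, 1 had an unadjusted p under 0.05, and the median was -0.09, with the helicase gene DDX39A (ENSDARG00000015111) at -0.16 and the adaptor gene alyref at -0.17. The groups did not overlap in 1 of the 19 splicing regulators as higher and in 8 as lower. For the exon junction and decay genes these were 3 and 4 of 10, and for the export genes 1 and 5 of 14. Over all tested genes, 26.1% and 26.3% showed this, 20.6% had an unadjusted p under 0.05 and 1.98% were called. At that share of calls, 0 calls in lists this small say little.

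The genes most like srsf5a and SRSF9 were sought among 9158 named genes with a mean of at least 10 CPM, by the distance between log2 CPM profiles over the 4 libraries, each centred on its own mean. The nearest to srsf5a were aldh9a1b (distance 0.0243), TMEM204 (0.0246) and TMED5 (0.0261), and 106 genes lay within 0.1. The distance was not scaled for the size of change, so genes that vary little lie near each other, and such counts cannot be compared between genes. The nearest to SRSF9 were ccdc50b (0.0584), OTP (0.0597) and SLC4A1 (0.0648), and 6 genes lay within 0.1. OTP, a homeobox gene of the hypothalamus, had 70.1 and 81.4 CPM with the srsf5a morpholino and 121 and 111 CPM in the controls. SLC4A1, the anion exchanger of red cells, had 214 and 246 CPM with the srsf5a morpholino and 363 and 342 CPM in the controls. These likenesses rest on 4 libraries and are a description.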

How the data were processed

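The submitters' processing notes name Zv9 as the genome build and TopHat, HTSeq, Picard and DESeq2 as tools. No version, annotation release or strand setting is stated there. The authors deposited read counts per gene, as whole numbers, for each library. Per the file headers, the authors' DESeq2 output gives each gene a mean signal (normalized counts), a log2 fold change with its error, a Wald score, a p-value and an adjusted one. Only its log2 value and adjusted p-value for SRSF9, its signs, and its number of genes with an adjusted p under 0.05 were used. Rows of summary totals stayed out of library sizes, and 53.0% to 57.1% of all listed counts were assigned to genes.

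For the test, edgeR 4.0.16 (R 4.3.3) was run with TMM scaling (factors between 0.984 and 1.01) after filterByExpr at its minimum count of 10 and minimum total of 15, with the group as the only term. Standard errors were the log2 fold change over the root of F. A count of 0 allows up to 3 counts, which is 0.0828 CPM in the deepest library (36240893 counts) and 0.198 CPM in the shallowest (15139525 counts), for counting error only. The chi-square between replicates, per degree of freedom, was 13.5 with the srsf5a morpholino and 8.72 with the control, above sampling noise, so each library was kept as a sample. Paralog ratios were compared by exact permutation. The procedure was tested on simulated counts. Alternatives were DESeq2 1.42.0, its size factors, other filters, libraries left out and a replicate block. Symbols were matched without regard to case.

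The 10 genes were given by identifier, and the members and lists were chosen with earlier results of these data known. Members are always named. From each list the genes that passed are named, otherwise the 2 most abundant, and so are the 3 genes nearest by profile to srsf5a and SRSF9. A gene that this rule takes is not reported here. Coordinates and the promoter and protein sequences of the genes were not used here.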

Additional observations from a re-analysis of the deposited data

How the results depend on the processing

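SRSF9 stayed below 0 under all 9 alternatives and passed in 7 of them. The count of all genes called was 395 (242 higher, 153 lower), against 980 (522 and 458) with DESeq2, and was within 1.5 times with its size factors or another filter on low counts. Leaving out 1 library gave 33 to 1410 calls (31 to 702 higher and 2 to 708 lower) and 0 to 2 of the 10 SR genes, the second being the SRSF3 gene ENSDARG00000059360 without srsf5a-morpholino replicate 2. The fold changes of 4 SR genes that did not pass changed sign, with ranges of -0.051 to 0.12 for SRSF5, -0.066 to 0.24 for the SRSF6 gene ENSDARG00000013729, -0.056 to 0.33 for the SRSF1 gene ENSDARG00000057691 and -0.21 to 0.11 for srsf7a. The ratios did so for srsf5a over SRSF5 (-0.027 to 0.31), the SRSF6 genes (-0.25 to 0.17) and the SRSF1 genes (-0.26 to 0.089). They kept their sign for the SRSF3 genes (0.11 to 0.29) and for SRSF9 over either SRSF1 gene (-0.82 to -0.65 and -0.97 to -0.67). That was fixed in advance, because groups whose ratios do not overlap keep their order whichever library is left out. The cause was not tested.

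Replicate numbers are shared between groups, but the labels do not say what they mark. Same-numbered libraries deviated together (r = 0.44 across 17988 genes). The 10 SR genes mostly did not, as replicate 2 exceeded replicate 1 in 9 with the srsf5a morpholino and in 2 in the controls. With the replicate block 1582 genes passed (865 higher, 717 lower), 7.94% of those tested. Of the 10 SR genes 1 passed, SRSF9 at -0.67, a share near that of all tested genes. The block changed no other call of the SR genes. For a paralog ratio the block could not move the difference, because the mean paired difference equals the difference of the group means. Each p was 0.5 or above (paired exact permutation test), and 0.5 is the smallest that 2 pairs allow.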
